A study of Mus musculus with 96 samples.

Results

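Surfactant proteins and airway secretory proteins are made by the epithelium of the lung, and 10 genes known from that epithelium were followed here through 16 mouse tissues: Sftpa1, Sftpb, Sftpc, Sftpd, Scgb1a1, Scgb3a2, Ager, Lamp3, Cldn18, and Hopx. They were taken by symbol as lung genes of textbook knowledge, with earlier results of these data known. All 10 have a row among the 41575 symbols of the count table. Bulk RNA was sequenced in 96 libraries, 3 for each genotype in each tissue, from wild-type (WT) and Scx-/- mice, 3 weeks old. Scx encodes scleraxis, a transcription factor of tendon and ligament cells. The Scx-/- mice lack it by label in every tissue compared here, and the sources used here do not give the part of the gene that is lacking, the strain, the sex, or which libraries share a mouse, so that a p-value measures only the spread between libraries, which may be technical. The other 15 tissues are heart, spleen, kidney, and liver, the stomach, intestine, rectum, and bladder, bone, cartilage, and muscle, cortex and hippocampus, and adipose and vascular tissue. The study judged its vascular samples contaminated and set them aside, and markers of pancreatic acinar cells summed to a mean of 301156 CPM in the adipose libraries.

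Surfactant is a film of lipid and protein that lowers the surface tension of the air spaces. Alveolar type 2 cells make it, pack it with its small hydrophobic proteins into lamellar bodies, and release it, while the thin alveolar type 1 cells carry gas exchange and the club cells of the airways secrete secretoglobins. Sftpb and Sftpc encode the hydrophobic surfactant proteins, Sftpa1 and Sftpd the collectins that bind microbes, and Lamp3 a membrane protein of lysosomes and lamellar bodies. Scgb1a1 encodes the club cell secretory protein and Scgb3a2 a second secretoglobin of the airway. Ager encodes a receptor that is abundant in type 1 cells, Cldn18 a tight junction protein of lung and stomach, and Hopx a homeodomain protein without DNA binding that is known from type 1 cells and from the heart.

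The 6 lung libraries held 46732 to 341964 counts each, so that 1 count was worth 2.92 to 21.4 CPM (counts scaled to a library total of 1000000). Over all 96 libraries the totals ran from 11244 counts upward, with a median of 251640, and 16 libraries were under 100000. Scx itself was found in 12 of 48 WT libraries, with 80 counts, and in 1 of 48 Scx-/- libraries, with 9 counts. In lung it had 6 counts in WT replicate 1 and 0 in the other 5 libraries, too few to check the genotype labels of the lung libraries. Replicates of a lung group differed by more than sampling noise in every pair (chi-square per degree of freedom from 7.60 to 9.75), and each was counted as a library of its own.

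RefSeq promoters (GRCm38.p6) were at hand for 6 of the 10 genes, as 8 windows, while Sftpc, Sftpd, Scgb1a1, and Scgb3a2 had no entry. The 250 bases before the start of 4 genes are printed 5′ to 3′ along the strand of the gene. They were chosen because they set a gene counted in lung alone or nearly so (Sftpa1 and Lamp3) beside a surfactant gene listed at 0 (Sftpb) and beside the gene with a second tissue (Cldn18, which has 2 starts). Capitals mark CTCAAG, the core letters bound by NKX2-1, the lung and thyroid homeodomain factor, or TGTTTAC, letters bound by FOXA factors; both strands were searched and the 2 motifs do not overlap. The windows are chr14:41131538-41131787 on the plus strand for Sftpa1, chr6:72304360-72304609 on the plus strand for Sftpb, chr16:19706366-19706615 on the minus strand for Lamp3, and chr9:99717268-99717517 and chr9:99710064-99710313 on the minus strand for the upstream and downstream starts of Cldn18.
Sftpa1: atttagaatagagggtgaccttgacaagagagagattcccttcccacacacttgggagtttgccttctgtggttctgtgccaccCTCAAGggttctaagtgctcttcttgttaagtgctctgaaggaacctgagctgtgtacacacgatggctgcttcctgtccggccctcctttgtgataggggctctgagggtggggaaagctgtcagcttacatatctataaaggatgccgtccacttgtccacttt
Sftpb: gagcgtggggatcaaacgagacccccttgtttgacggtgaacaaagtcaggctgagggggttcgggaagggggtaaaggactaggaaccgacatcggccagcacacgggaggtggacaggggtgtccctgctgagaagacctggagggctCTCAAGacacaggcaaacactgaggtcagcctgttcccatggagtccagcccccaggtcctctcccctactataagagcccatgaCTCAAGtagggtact
Lamp3: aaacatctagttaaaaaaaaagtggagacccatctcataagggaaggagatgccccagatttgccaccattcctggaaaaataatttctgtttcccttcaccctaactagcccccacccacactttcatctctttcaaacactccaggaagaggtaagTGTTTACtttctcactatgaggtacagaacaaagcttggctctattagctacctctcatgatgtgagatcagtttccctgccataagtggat
Cldn18 upstream start: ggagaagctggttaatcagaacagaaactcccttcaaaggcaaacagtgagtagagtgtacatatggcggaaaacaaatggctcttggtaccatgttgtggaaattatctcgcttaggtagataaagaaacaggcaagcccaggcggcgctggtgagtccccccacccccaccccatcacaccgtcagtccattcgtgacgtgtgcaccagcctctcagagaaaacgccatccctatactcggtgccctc
Cldn18 downstream start: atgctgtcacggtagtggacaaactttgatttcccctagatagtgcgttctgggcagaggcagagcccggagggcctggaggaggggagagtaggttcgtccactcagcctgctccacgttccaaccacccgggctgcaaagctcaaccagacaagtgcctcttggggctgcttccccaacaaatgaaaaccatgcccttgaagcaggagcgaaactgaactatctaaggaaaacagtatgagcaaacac

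CTCAAG stood in 3 of the 8 windows, and 13.3% of 32851 promoters of the same length held it. It lay 166 bases before the Sftpa1 start, 100 and 15 bases before the Sftpb start, and 112 bases before the upstream start of Hopx. TGTTTAC stood in 1 of the 8 windows, 92 bases before the Lamp3 start, against 3.17% of all promoters. Neither run of letters was in the Cldn18 or Ager windows. These matches describe letters and no binding was measured.

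The surfactant genes with counts were concentrated in lung. Sftpc (chr14:70520949-70524081, minus strand) stood at 20529, 20864, and 17557 CPM in WT lung and at 22108, 17462, and 23262 CPM in Scx-/- lung, and 99.6% ± 0.0527 (SD over 6 lung libraries) of its summed level over the 16 tissue means was in lung. Sftpa1 (chr14:41131782-41136452, plus strand), whose window is printed above, stood at 4191, 3980, and 3308 CPM in WT lung and at 3661, 5122, and 6179 CPM in Scx-/- lung, with 99.3% ± 0.152 of the summed level in lung. The genotypes overlapped for both genes, although the highest Sftpa1 values were those of Scx-/- replicates 2 and 3. Sftpd (chr14:41172214-41185149, minus strand), the second collectin, stood at 605, 877, and 620 CPM in WT lung and at 215, 545, and 513 CPM in Scx-/- lung, with 96.4% ± 2.37 of the summed level in lung. All 3 Scx-/- values of Sftpd were below all 3 WT values. Lamp3 (chr16:19653378-19706375, minus strand) stood at 453, 128, and 282 CPM in WT lung and at 165, 273, and 280 CPM in Scx-/- lung. Its lowest value rests on 6 counts in WT replicate 2, and outside lung it had 1 count, in cortex.

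The airway secretoglobins were as narrow in tissue. Scgb1a1 (chr19:9083636-9087958, minus strand) stood at 50137, 36014, and 42897 CPM in WT lung and at 64455, 60822, and 69170 CPM in Scx-/- lung, so the groups did not overlap. Together with Scgb3a2 it took 3.69% to 5.14% of all counts of a WT lung library and 6.21% to 7.09% of a Scx-/- one. Scgb3a2 (chr18:43764289-43767399, plus strand) stood at 1313, 899, and 1673 CPM in WT lung and at 1471, 1306, and 1733 CPM in Scx-/- lung, which overlap. The share of the summed level in lung was 99.2% ± 0.213 for Scgb1a1 and 99.9% ± 0.0366 for Scgb3a2.

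Sftpb (chr6:72304610-72314371, plus strand) and Ager (chr17:34597862-34600936, plus strand) were listed at 0 in all 96 libraries, the 6 lung libraries included. The lung libraries held 897660 counts in all. Neither gene shares exon bases with another gene in the GENCODE annotation of mm10. Of 172 genes of the cell type and pathway lists with a row, 7 were likewise listed at 0 in all 96 libraries. Among these, singled out after their values were seen, were Cxcl15, an alveolar type 2 marker, Pdpn, a type 1 marker, and Cldn5, an endothelial marker. Of all 41575 symbols, 19082 (45.9%) were listed at 0 throughout. The annotation and counting settings behind these rows are unknown here, and the values of Sftpb and Ager are given as listed.

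**Figure D1:**
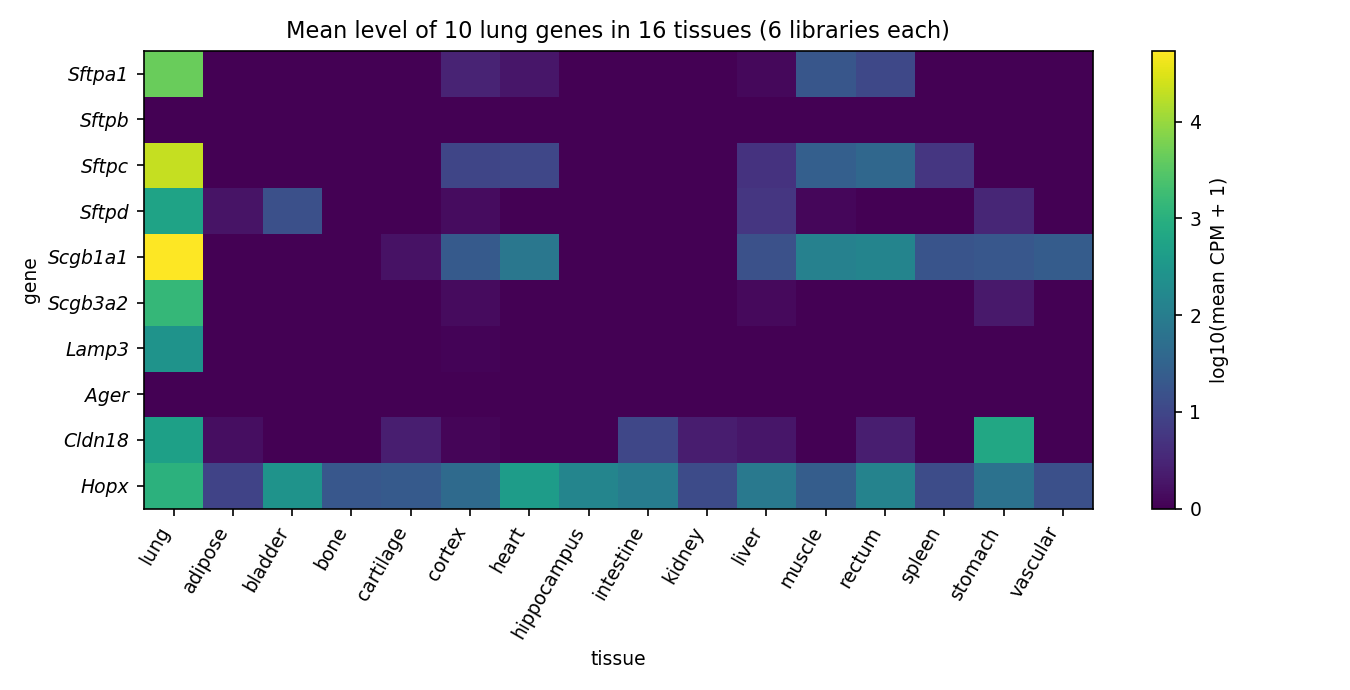
Heat map of the mean level of the 10 genes (rows) in 16 tissues (columns, lung first), as log10 of the mean CPM of 6 libraries plus 1. Sftpc and Scgb1a1 are brightest in lung, Cldn18 is bright in lung and stomach, Hopx has a level in every tissue, and the Sftpb and Ager rows are at 0 throughout.

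Other lung markers checked the tissue label, with mixed results. Of the type 2 list, Slc34a2, the phosphate transporter, had a mean of 1428 CPM in lung, 93.4% of its summed level, Chil1 one of 554 CPM (83.7%), and Lyz1, a lysozyme, one of 1098 CPM (34.6%). Of the 12 type 2 markers with counts, 4 had over 50% of their summed level in lung. Of the type 1 list 6 of 13 did, with Sec14l3 at 99.0%, Emp2 at 65.1%, and Cav1, the caveolae protein, at 27.0%. Of the club list 5 of 14 did, with Cbr2, a carbonyl reductase of club cells, at 83.7%, Cyp2f2 at 62.8%, and Aldh1a1 at 31.8%. The summed levels of the type 1, club, ciliated, and lung endothelial lists were highest in lung among the 16 tissues. The surfactant synthesis list ranked 2 behind kidney (5967 against 7085 CPM), and the type 2 list ranked 3 behind intestine and kidney.

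The contrast of lung with each other tissue asks in which tissues these genes are lower or higher. The genes were chosen as lung genes, so a higher level in lung is what the choice leads to. Of 120 gene-tissue pairs (8 genes with counts against 15 tissues), 118 were called higher in lung at an adjusted p under 0.05 by edgeR's quasi-likelihood test, against 4.39% of all gene-tissue pairs tested. The adjusted p is that of Benjamini and Hochberg over all genes of a fit, and levels were scaled by TMM factors, which set the bulk of genes equal between libraries. In 67 of the pairs the other tissue was at 0 counts in all 6 libraries, and in 16 it had 1 to 3 counts. With adipose and vascular tissue left out, 102 of 104 pairs were higher in lung. Against a floor of 3 counts over the 6 libraries of a tissue at 0, lung Sftpc was at least 4258-fold to at least 24242-fold higher, and lung Scgb1a1 at least 11311-fold to at least 64397-fold higher. These floors cover counting error only.

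Cldn18 was the exception in direction. It encodes a claudin, a protein that seals the space between neighbouring epithelial cells, and it had 1670 counts in stomach against 477 in lung. In stomach it stood at 756, 796, and 710 CPM in WT and at 590, 562, and 760 CPM in Scx-/- libraries. In lung it stood at 611, 492, and 395 CPM in WT and at 397, 589, and 391 CPM in Scx-/- libraries. The lung and stomach values overlapped in their range, with the stomach mean 1.45 times the lung mean. Lung was called lower than stomach (log2 fold change -1.05, SE 0.33, n = 6 against 6, adjusted p = 0.0207, edgeR), against 5.99% of all gene-tissue pairs called lower in lung. Scaled by library totals in place of TMM factors, the difference was -0.52 with an adjusted p of 0.336. It was also lost in the WT libraries alone (-1.17, adjusted p = 0.274) and without lung WT replicate 3, Scx-/- replicate 1, or Scx-/- replicate 3 (adjusted p = 0.0554, 0.0515, and 0.0657).

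Outside lung and stomach, Cldn18 had 16 counts in all, in 7 tissues, at most 5 in kidney. Lung held 40.3% ± 4.98 of its summed level. The gene (chr9:99689461-99717267, minus strand) has 2 starts in the RefSeq promoters, 7204 bases apart, whose windows are printed above. Counts per symbol do not tell transcripts from the 2 starts apart, so neither tissue's counts can be assigned to a start. The 10 gastric mucosa markers summed to a mean of 135 CPM in lung against 201271 CPM in stomach, with 7 of the 10 at 0 in all lung libraries, and the type 1 list to 609 CPM in stomach against 6488 CPM in lung.

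Hopx was the broadest of the genes. It had counts in 77 of 96 libraries and in all 16 tissues. In lung it stood at 1395, 407, and 1278 CPM in WT and at 975, 875, and 1622 CPM in Scx-/- libraries, a spread of 433 CPM (SD) around a mean of 1092 CPM. Heart came next in the order of means, at 357, 0, and 774 CPM in WT and at 434, 451, and 501 CPM in Scx-/- libraries. The 0 belongs to heart WT replicate 2, which held 11244 counts, the fewest of all libraries. Lung and heart did not differ beyond their spread by the model (log2 fold change 0.83, 95% interval -0.10 to 1.76, adjusted p = 0.329, edgeR). Scaled by library totals the same pair was called, with a log2 fold change of 1.30 and an adjusted p of 0.0180. Bladder followed, with 218, 225, and 188 CPM in WT and 303, 318, and 379 CPM in Scx-/- libraries, and lung was 3.48-fold higher than bladder (adjusted p = 1.72e-06, edgeR).

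Below bladder the Hopx means were 140 CPM in hippocampus, 132 in rectum, 95.6 in intestine, 81.5 in liver, 60.6 in stomach, and 41.9 in cortex. The spreads of neighbours in this order overlap, with SDs of 71.8, 103, 112, 62.0, 31.1, and 11.2 CPM. The other 7 tissues were between 8.03 CPM in adipose and 23.5 CPM in muscle. Hopx (chr5:77086988-77115121, minus strand) shares 412 of its 1516 exon bases with Hopxos, its antisense neighbour, and no source used here says whether the counting used strand. Hopxos had 0 counts in lung. The 10 cardiomyocyte markers summed to a mean of 780 CPM in lung and 67459 CPM in heart, and their part in the lung level of Hopx was not tested.

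**Figure D2:**
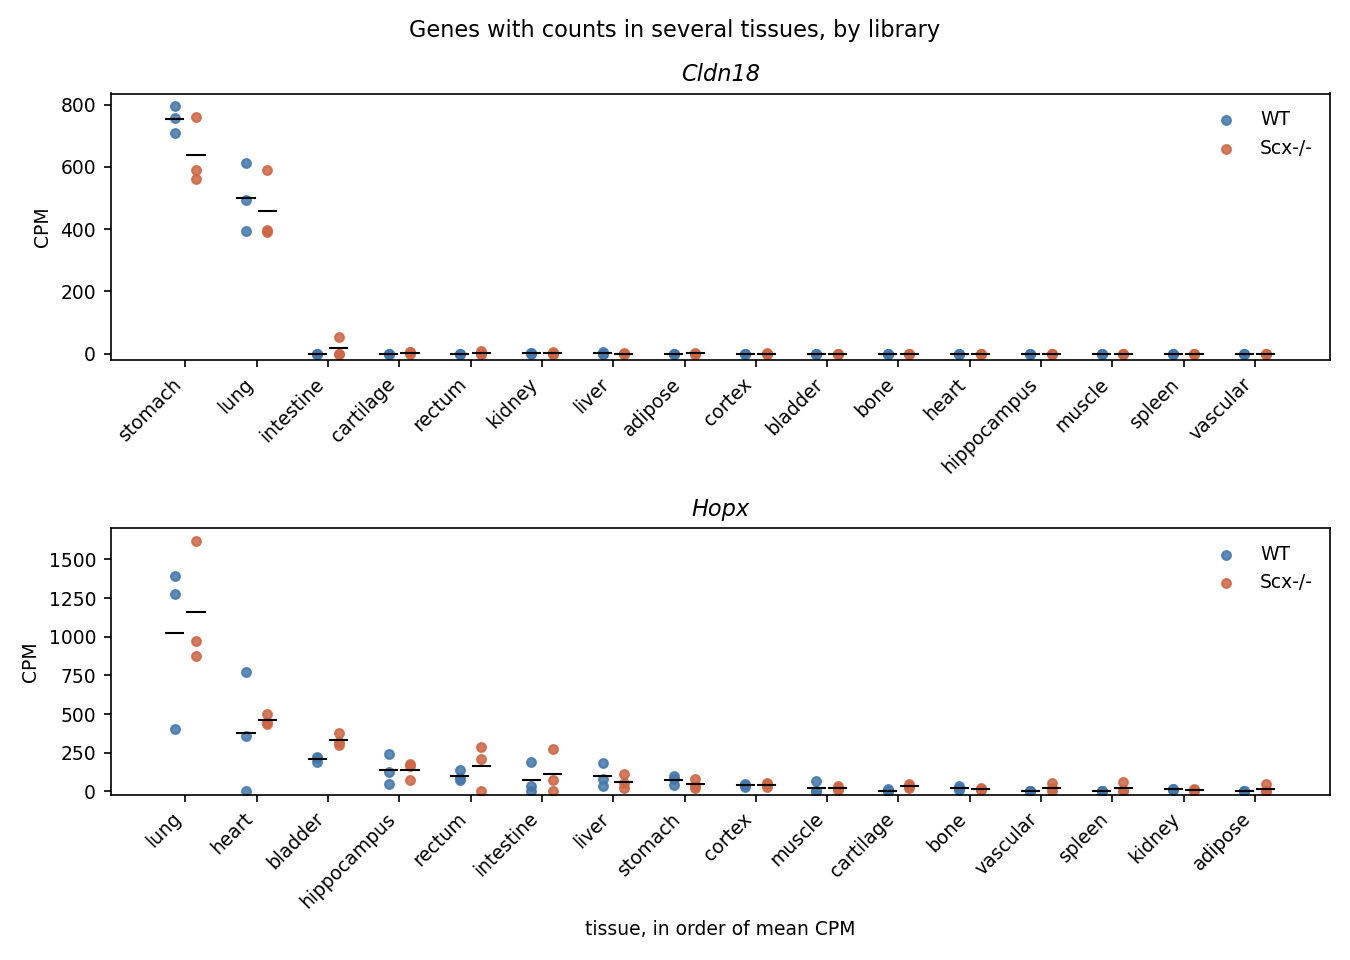
Level (CPM) of Cldn18 and Hopx in each library, with tissues along the x axis in order of the mean, WT in blue, Scx-/- in orange, and black lines at the mean of 3 libraries. Cldn18 stands in stomach and lung and near 0 elsewhere, while Hopx declines from lung (mean of 1092 CPM) through heart (419 CPM) and bladder (272 CPM).

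The contrast of genotypes within lung asks whether loss of Scx goes with a change in these genes. Scgb1a1 was the gene that was called, and it was higher in Scx-/- lung, 64816 ± 4186 CPM against 43016 ± 7062 CPM in WT (SD, n = 3 each), a ratio of 1.51. On the TMM scale the log2 fold change was 0.81 (SE 0.12), with an adjusted p of 2.52e-07 by edgeR's quasi-likelihood test, and it was higher in 3 of 3 Scx-/- libraries. The test gave Scgb1a1 1059 degrees of freedom, far more than 3 against 3 libraries supply, because it pools spread over genes. Its SE and p therefore rest mostly on the spread of other genes. Scgb1a1 was 1 of 13746 genes tested (0.00727%) to be called. The call did not hold in DESeq2 (log2 fold change 0.76, adjusted p = 0.993), which called 0 genes of 13746 (389 at an unadjusted p under 0.05, against 380 in edgeR), nor in a fit with 1 spread estimated over all 32 groups (0.81, adjusted p = 0.872). It held under every removal of 1 lung library, with the largest adjusted p, 0.0376, and the smallest log2 fold change, 0.61, without WT replicate 2. An exact permutation test of 3 against 3 libraries cannot go below 0.1.

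Scgb1a1 also separated the genotypes when set against Sftpc in the same library, a measure that needs no scaling. The count of Scgb1a1 was 2.44, 1.73, and 2.44 times that of Sftpc in WT lung and 2.92, 3.48, and 2.97 times in Scx-/- lung. These 2 sets of values did not overlap, and the ratio moves when either gene does. Mean Sftpc CPM in Scx-/- lung was 1.07 times that in WT, so the ratio largely restates the Scgb1a1 difference. By CPM, 3.38% of all genes tested had all 3 Scx-/- libraries above all 3 WT libraries, and 2.53% had all 3 below, as Sftpd did. No such share was worked out for ratios.

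Marker lists of other lung cells were set beside this difference, and their part in it was not tested. The summed level of the 14 club and airway secretory markers other than the secretoglobins above was 5585 to 7694 CPM in WT and 8217 to 10214 CPM in Scx-/- lung, without overlap. Of these markers 0 of 14 were called by edgeR, 1 was at an unadjusted p under 0.05 (2.76% of all genes tested in lung were), and 11 had a log2 fold change above 0. The highest, Cbr2, was at 4017 ± 171 CPM in WT and 5733 ± 680 CPM in Scx-/- lung (log2 fold change 0.76, adjusted p = 0.741, edgeR). Cyp2f2, a cytochrome P450 of club cells, had a log2 fold change of 0.45, and Aldh1a1, a retinal dehydrogenase, one of 0.53. The 14 alveolar type 2 markers other than the 10 genes, of which 12 could be tested, likewise did not overlap, with sums of 4098 to 4258 CPM in WT and 4462 to 5942 CPM in Scx-/- lung, and 10 of the 12 had a log2 fold change above 0. Of the 12, 2 were at an unadjusted p under 0.05 by edgeR. Lyz1 rose most in CPM, from 826 ± 187 in WT to 1371 ± 350 in Scx-/- lung. Globin genes took 5.38%, 2.81%, and 6.10% of counts in WT and 9.40%, 11.2%, and 5.90% in Scx-/- lung, which overlap. Of the 6 red blood cell markers 0 were called and 4 were at an unadjusted p under 0.05, in both directions. Hba-a1 had a log2 fold change of 1.07 (adjusted p = 0.0859, edgeR) and Alas2, an enzyme of haem synthesis, one of 1.18 (adjusted p = 0.741, edgeR). Hbb-bt, named after its values were seen, had one of -6.39 (adjusted p = 0.0859, edgeR), and WT replicate 2 held 47 of its counts, WT replicate 3 held 7, and Scx-/- replicate 1 held 1. Hbb-bs had 502 counts in WT replicate 2 (10742 CPM) and at most 2 in any other lung library, so 1 library carries its difference. The same WT replicate 2 had the lowest level of Scgb1a1, whose values without it are given above. The 14 lung fibroblast and matrix markers summed to 19520 to 22877 CPM in WT and 16223 to 17893 CPM in Scx-/- lung, without overlap, with 0 of 14 called. The squamous list, at few counts, did not overlap either (0 to 14.6 CPM in WT, 16.5 to 46.6 CPM in Scx-/- lung). The sums of the remaining lists overlapped. In bulk tissue a higher share of club cells and more RNA per club cell cannot be told apart.

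The other 7 genes with counts were not called between the genotypes in lung. Sftpa1 had a log2 fold change of 0.62 (95% interval 0.12 to 1.12, adjusted p = 0.741), and Sftpc one of 0.33 (0.02 to 0.64, adjusted p = 0.741, both by edgeR). The intervals are those of single genes, without adjustment. They use 54984 degrees of freedom, so their width comes mostly from a spread pooled over genes, not from the libraries of each gene. Scgb3a2 had a log2 fold change of 0.45 (-0.29 to 1.19), Hopx one of 0.32 (-0.48 to 1.13), and Cldn18 one of 0.10 (-1.01 to 1.22). Lamp3 had one of -0.14 (-1.59 to 1.31) and Sftpd one of -0.42 (-1.49 to 0.65). A 2-fold change lies inside the intervals of Sftpa1, Scgb3a2, Hopx, Cldn18, Lamp3, and Sftpd. In 6 of the 8 genes the log2 fold change was above 0, with a median of 0.33. Over all genes tested the median was 0.18 and 54.1% were above 0, and scaled by library totals that median was -0.01.

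**Figure D3:**
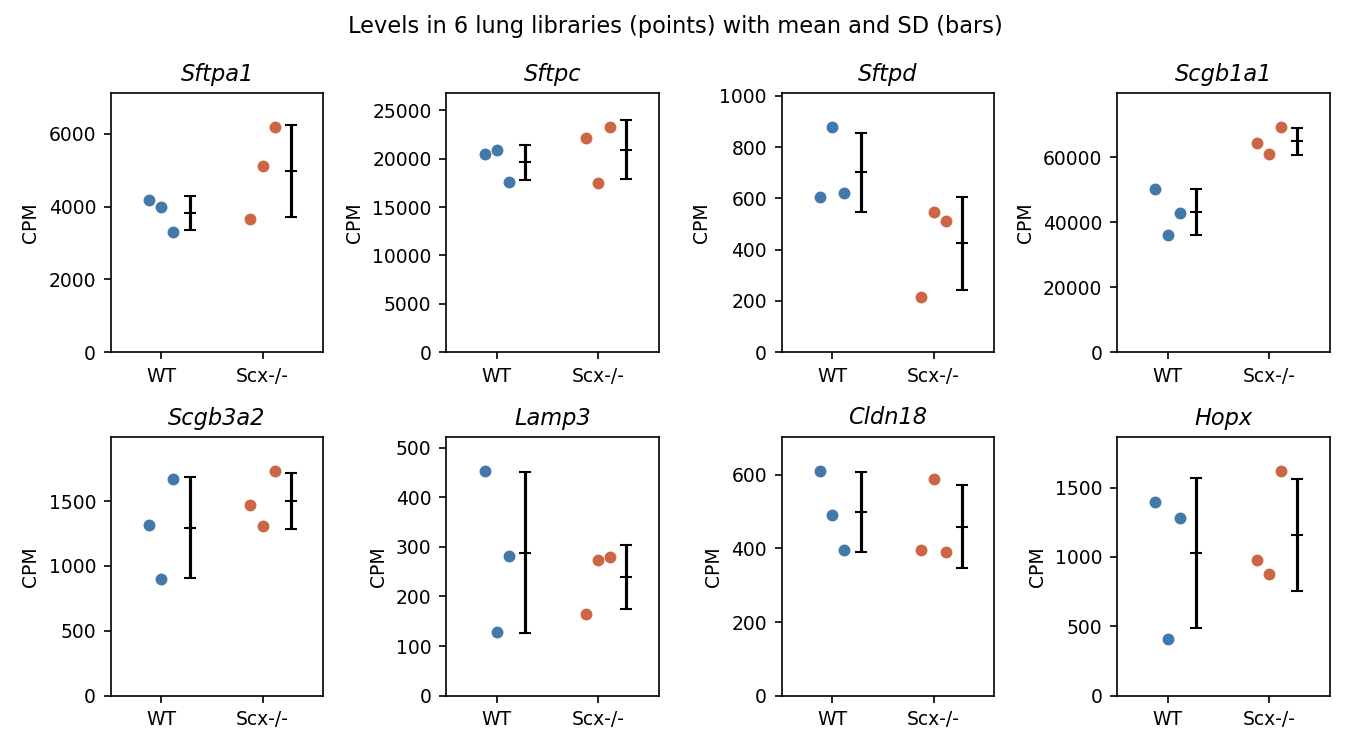
Level (CPM, axes from 0) of the 8 genes with counts in the 6 lung libraries, WT in blue and Scx-/- in orange, in order of replicate, with black bars for the mean and SD of 3. The Scx-/- points of Scgb1a1 (60822 to 69170 CPM) lie above all WT points, those of Sftpd (215 to 545 CPM) lie below, and the other panels overlap.

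The wider pathway list gave no call. Of 21 genes of surfactant synthesis and secretion other than the 10 genes, 0 rose and 0 fell in Scx-/- lung by edgeR, 2 were at an unadjusted p under 0.05, against 2.76% of all genes, and the median log2 fold change was 0.01 against 0.18 over all genes. Slc34a2 had a log2 fold change of 0.30 and Adgrf5, a receptor that senses surfactant, one of 0.21. Scd1, which desaturates fatty acids, was at 850 ± 215 CPM in WT and 734 ± 245 CPM in Scx-/- lung. Of the type 2 list 0 of 12 tested markers were called, of the type 1 list 0 of 13, of the ciliated list 0 of 13, and of the endothelial list 0 of 11. Of the smooth muscle, macrophage, lymphocyte, cardiomyocyte, gastric, squamous, thyroid, and pancreatic lists no gene was called either.

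In the other 15 tissues the genotype was tested in the 53 gene-tissue pairs with counts, and 0 were called by edgeR (and 0 by DESeq2), against 0.097% of all gene-tissue pairs. At an unadjusted p under 0.05 there were 4 of the 53, against 4.09% of all gene-tissue pairs. They were Scgb1a1 in muscle (log2 fold change -2.16) and vascular tissue (5.71), Sftpd in bladder (6.36), and Hopx in spleen (5.78). Muscle Scgb1a1 had a 95% interval of -4.03 to -0.30 (adjusted p = 0.771, edgeR). Stomach Cldn18 had a log2 fold change of -0.26 (95% interval -0.79 to 0.27). Bladder Hopx had one of 0.58 (-0.14 to 1.31). Heart Hopx had one of 0.00 (-1.31 to 1.31). The difference of the lung genotype effect from that of another tissue was called for 1 gene-tissue pair of these genes, Sftpd in lung against bladder, and for no pair with Scgb1a1, against 0.0129% of all gene-tissue pairs. Its difference from heart was 3.31 on the log2 scale (adjusted p = 0.347, edgeR), and that from vascular tissue, where 1 library held all 12 counts, was -4.87 (adjusted p = 0.898, edgeR).

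Low counts of the lung genes appeared in some other tissues, in a pattern shared by Sftpc and Scgb1a1. Sftpc had 56 counts in cortex, 31 in rectum, 24 in muscle, 14 in liver, 13 in heart, and 8 in spleen, and 0 in the 54 libraries of the other 9 tissues. Scgb1a1 had 143, 129, 74, 46, 31, and 22 counts in the same 6 tissues in that order. Elsewhere it had 56 counts, 43 of them in stomach, 12 in vascular Scx-/- replicate 3, and 1 in cartilage. Counts of Scgb1a1 were in 34 of the 36 libraries of the 6 tissues and in 6 of the 54 others.

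The counts of Scgb1a1 made up 73.5% of the sum of Scgb1a1 and Sftpc in lung (exact 95% interval 73.2 to 73.8). In the 6 tissues the share was 71.9% in cortex (65.1 to 78.0), 80.6% in rectum (73.6 to 86.4), 75.5% in muscle (65.8 to 83.6), 76.7% in liver (64.0 to 86.6), 70.5% in heart (54.8 to 83.2), and 73.3% in spleen (54.1 to 87.7). These intervals pool the reads of 6 libraries and cover counting error only, and the single lung libraries ran from 63.3% to 77.7%. In liver all 14 Sftpc counts were in Scx-/- replicate 2, beside 5 of Scgb1a1, and the other 5 libraries held 41 counts of Scgb1a1 and 0 of Sftpc, so no single liver library had the pooled share. In stomach 0 of 43 such counts were Sftpc. Sftpa1 had 14 counts in cortex, 8 in muscle, 6 in rectum, and 1 each in heart and liver. The mean level of Scgb1a1 in the 6 tissues was 0.0257% to 0.247% of that in lung. Its highest value outside lung was 658 CPM in muscle WT replicate 1, from 20 counts. Whether these counts were made in those tissues or came from lung RNA was not tested.

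**Figure D4:**
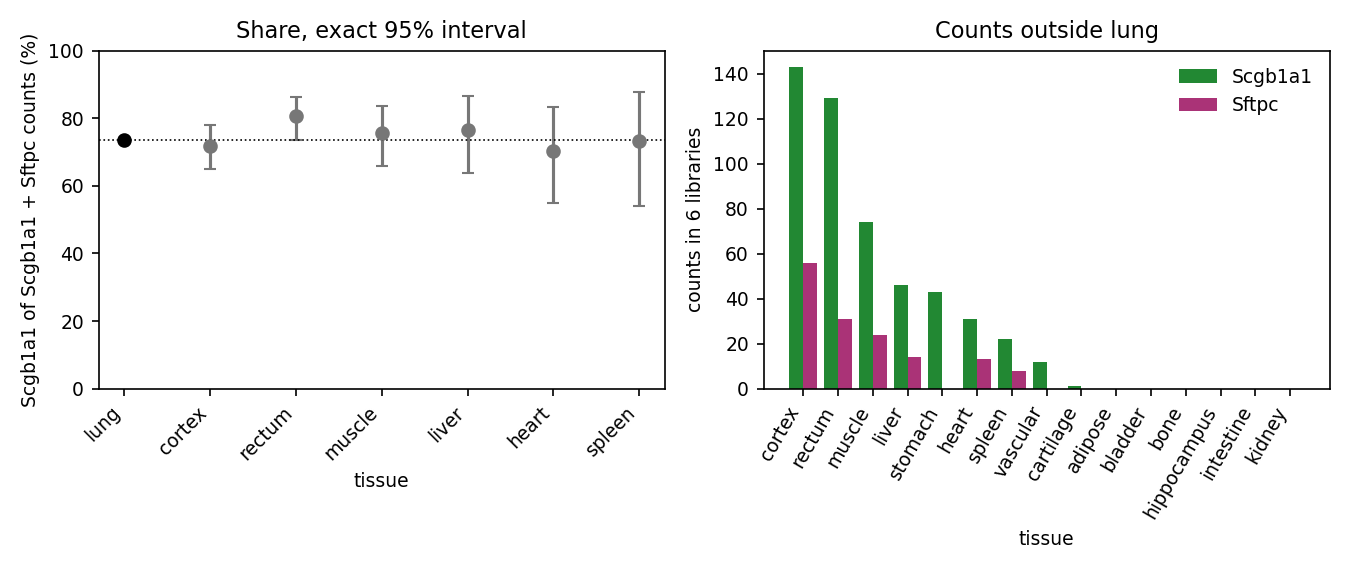
Left, Scgb1a1 as percent of Scgb1a1 plus Sftpc counts in lung and in the 6 other tissues with both, with exact 95% intervals and a dotted line at the lung share (73.5%). Right, counts of both genes summed over 6 libraries in each of the 15 other tissues, where Sftpc is at 0 in 9 tissues and the bars of Scgb1a1 reach 143 in cortex.

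Sftpd had 46 counts outside lung, in 8 libraries of 6 tissues. It had 19 counts in bladder, all in Scx-/- replicate 3 (78.2 CPM), 16 in liver, in Scx-/- replicates 2 and 3, 5 in stomach, in 2 WT libraries, 3 in cortex, 2 in adipose, and 1 in muscle. Bladder, stomach, and adipose had 0 counts of Sftpc. Lung held 2.69 counts of Sftpd for each 100 of Sftpc, so the few Sftpc counts of heart, rectum, and spleen leave the 0 of Sftpd there without information.

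Across the 96 libraries the genes with counts, other than Cldn18 and Hopx, each had another of these genes as the closest. Pearson's r of log2(CPM + 1) was compared over 15925 genes with at least 10 CPM in some tissue, and because 6 libraries of 1 tissue hold nearly all of the level, r describes tissue more than library. The closest genes to Sftpa1 were Sftpc (r = 0.93), Lamp3 (0.93), and Sec14l3 (0.92). Scgb3a2 and Lamp3 were closest to each other (0.99), each followed by Nkx2-1 (0.95 and 0.96). Sftpd was closest to Scgb3a2 (0.91), Lamp3 (0.90), and Rtkn2 (0.86). Scgb1a1 was closest to Sftpc (0.88), Sftpa1 (0.88), and Scgb3a2 (0.80). Cldn18 was closest to Aqp5, a water channel (0.77), Slc26a9, a chloride transporter (0.76), and Kcne2, a potassium channel subunit (0.76), the last 2 with their highest mean in stomach. Hopx had no close neighbour, with Tbx5, a factor of heart and lung, at 0.58, Plpp3 at 0.56, and Pkp2, a desmosome protein, at 0.55.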

How the data were processed

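Tissues were removed whole and frozen, and RNA was extracted with Trizol. Libraries were barcoded at reverse transcription, pooled, and made with Nextera XT. The paper calls them 3′-enriched and the series record Smart-seq2 based. Per the labels and methods, the authors mapped reads to mm10 with Bowtie2 and counted with HTSeq. The deposited values are raw counts per symbol. Versions, annotation, strand, and molecular identifiers were not given in the sources used here, and Bowtie2 does not split reads over introns.

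CPM was computed on library totals. Tests used edgeR 4.0.16 (R 4.3.3): TMM factors, robust glmQLFit, glmQLFTest, genes at 0 in all libraries of a fit removed, and Benjamini-Hochberg adjustment over all genes tested. These tests moderate the spread of a gene towards that of all genes, so most p-values and intervals rest largely on pooled spread. Lung was fitted against each tissue with 12 libraries in 4 groups. Alternatives were DESeq2 1.42.0, the authors' tool, other scalings, a filter on low counts, thinning, a joint fit, a replicate block, and leaving out each library. In simulated lung libraries 10 of 100 genes changed 4-fold and 83 of 100 changed 16-fold were recovered, with 0 of 12957 unchanged genes called. In simulated lung against stomach 11 of 15718 unchanged genes were called. Every simulated gene had the same dispersion of 0.3, and only genes with a mean of at least 10 counts were changed. Real genes differ in spread, so these rates need not hold for them. Depth is given as library totals, and Python 3.11.15 made the counts, intervals, and plots. Genes named are the 10 genes, the 3 highest of each list in lung, and the 3 most alike by r, with exceptions said to be named after their values were seen. The genes and lists were chosen with earlier results of these data known.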

Additional observations from a re-analysis of the deposited data

Results flagged for a closer look

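Sftpd was the gene whose genotype effect in lung differed from that in another tissue by the test of the difference itself. The log2 fold change of Scx-/- over WT in lung minus that in bladder was -6.19 (adjusted p = 0.00732, edgeR). In lung the effect was -0.42 (adjusted p = 0.868, edgeR), with all 3 Scx-/- libraries below all 3 WT libraries, as in 2.53% of genes tested. In bladder it was 6.36 (adjusted p = 0.804, edgeR), and it rests on 19 counts in Scx-/- replicate 3, with 0 in the other 5 bladder libraries. Over all genes 0.0129% of such gene-tissue pairs were called. DESeq2 and the fit with a replicate block called 0 such pairs of these genes. The source of the 19 counts was not tested.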

How the results depend on the processing

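Of 742 alternative values, 667 kept their direction and side of the threshold, or stayed within the limit for counts and shares. The lung genotype contrast called 1 gene, Scgb1a1, and without single lung libraries 1 to 4 genes. It called 3 genes with RLE scaling, 5 with library totals, 2 with libraries thinned to the smallest lung total, and 0 in DESeq2 and in the joint fit over 32 groups. In these last 2 fits 0 of the 10 genes were called, and the cause was not tested. The replicate numbers did not pair the lung libraries (correlations of same-numbered deviations -0.0071, -0.0017, and 0.0545). With the replicate block Scgb1a1 was at 0.88, Lamp3 in lung turned to 0.11, Scgb1a1 in muscle to 0.27, and Hopx in heart to 0.63, and 0 pairs differed from lung in genotype effect. That count, 1 in the fit reported, was 2 with RLE, library totals, or a filter on low counts, 0 in DESeq2, and 1 to 2 without single lung libraries.

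Leaving out adipose and vascular tissue, chosen after seeing the data, gave 102 pairs higher in lung. Pairs called lower were 0 with library totals and in WT alone, and 0 to 1 without single lung libraries. In WT alone, the calls of Scgb1a1 over muscle (log2 fold change 7.57, adjusted p = 0.419) and stomach (10.33, adjusted p = 0.0590, edgeR) were lost, with WT means of 43016 CPM in lung, 222 CPM in muscle, and 21.6 CPM in stomach. Other values that turned direction were never called. With library totals Cldn18 in lung was -0.13. Hopx in heart was 0.12 with RLE and with library totals, 0.095 with the filter, and 0.13 in DESeq2. Hopx in hippocampus was -0.0052 with RLE and -0.0051 in DESeq2. Without single libraries the log2 fold changes ran from -0.53 to 0.66 for Lamp3 in lung, -0.23 to 0.54 for Cldn18 in lung, -0.088 to 0.87 for Hopx in lung, -2.90 to 2.16 for Scgb1a1 in muscle, -0.49 to 0.90 for Hopx in heart, and -0.21 to 0.78 for Hopx in hippocampus.

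Shares in lung from tissue medians were 99.7% (Sftpa1), 99.8% (Sftpc), 100% (Sftpd and Lamp3), 99.6% (Scgb1a1), and 99.98% (Scgb3a2). In WT alone they were 98.8% (Sftpa1 and Scgb1a1), 99.4% (Sftpd), 99.8% (Scgb3a2), and 99.9% (Lamp3). In Scx-/- alone they were 99.7% (Sftpa1), 91.8% (Sftpd), 99.5% (Scgb1a1), 99.96% (Scgb3a2), and 100% (Lamp3). With TMM-scaled CPM they were 99.5% (Sftpc), 99.8% (Scgb3a2), and 31.8% (Cldn18). Depth limits the genes of few counts, such as Lamp3 with 288 lung counts.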

Other observations

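The samples of most tissues stand together in the order of the series record, in 1 run for each of 12 tissues. Lung, cortex, muscle, and rectum stand in 3 runs each. Cortex, muscle, and rectum had the most Scgb1a1 and Sftpc counts outside lung, but totals differ. Over the summed counts of a tissue, Scgb1a1 was at 132 CPM in rectum, 23.9 in heart, 22.6 in cortex, 19.2 in muscle, and 11.5 in vascular tissue. The mean over libraries was higher in muscle (121 CPM), heart (72.8 CPM), and vascular tissue (22.4 CPM), where single libraries stood at 658, 356, and 134 CPM from 20, 4, and 12 counts. Heart, liver, and spleen, the other 3 tissues with Sftpc counts, stand in 1 run each, and each run comes directly before 1 of the 3 lung runs. Bladder, which follows the last lung run, had 0 counts of Sftpc. The record does not give which libraries shared a pool or a sequencing lane, and a part of pooling or of dissection in these counts was not tested.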
